A study of Mus musculus with 8 samples.

Results

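The Hippo core kinases and scaffolds were taken as 10 named genes out of the 24341 in the expression table: the effector kinases *Lats1* and *Lats2*, the upstream kinases *Stk3* and *Stk4*, the adaptor *Sav1*, the coactivators *Mob1a* and *Mob1b*, and the scaffolds *Nf2*, *Wwc1* and *Wwc2*. They were listed by name and role. RNA from single mouse pancreas buds was sequenced at E11.0, at about 40 somites, with 5 WT and 3 Lats1/2-null buds, and every bud was a library of its own. All 8 carry the strain label CD1. The Lats1/2-null buds have the genotype Pdx1Creearly;Lats1f/f;Lats2f/f, with both alleles of each kinase gene floxed. Cre is driven by the *Pdx1* promoter, so mesenchyme, vessels and blood in the same bud keep both genes. The methods allow WT or heterozygous littermates as controls, and the labels of these 5 buds give WT. Mesenchyme was pulled away with forceps before RNA was isolated.

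The Hippo pathway is a kinase cascade that limits tissue growth and shapes cell fate. MST kinases, held by the adaptor SAV1, phosphorylate LATS kinases and their MOB1 coactivators, and the membrane-associated scaffolds merlin and KIBRA bring these proteins together. Active LATS1/2 phosphorylate YAP1 and TAZ and keep them out of the nucleus, where they would otherwise act with TEAD transcription factors.

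Levels are FPKM, which scale fragments to transcript length and library size, so that levels can be compared between genes. Between 16117 and 16982 genes were above 0 in a library. The steps between low values gave an estimate of 9.39e+06 to 1.02e+07 fragments in 7 libraries and 7.60e+06 in WT replicate 5, from 16 to 22 genes with a single exon in each. Among lists of markers, 8 of 12 pancreatic epithelium genes lay above the WT range in all 3 Lats1/2-null buds, beside 4.46% of all genes tested. The list's median log2 fold change was 1.11. The summed level of the 12 genes ran from 885 to 1122 FPKM in WT buds and from 1238 to 3095 FPKM in Lats1/2-null buds. *Pdx1*, which defines the pancreatic progenitor, was present in every bud, at 9.96 to 21.8 FPKM in WT and 15.3 to 48.5 FPKM in Lats1/2-null buds. The epithelial cadherin *Cdh1* was at 21.1 to 31.2 FPKM and 35.4 to 94.9 FPKM. The mesenchymal and endothelial lists went the other way, with median log2 fold changes of -0.40 and -0.43. Of these lists, 10 of 12 and 10 of 10 genes had lower fitted values in Lats1/2-null buds. Over all 13777 genes tested, 6461 had higher fitted values there. *Vim*, an intermediate filament gene of mesenchyme, was at 361 to 481 FPKM in WT and 464 to 602 FPKM in Lats1/2-null buds, against the direction of its list. The paper found its protein in mutant but not in WT pancreatic epithelium at a slightly later stage. Without *Vim*, the summed level of the other 11 mesenchymal markers was 608 to 853 FPKM in WT and 288 to 671 FPKM in Lats1/2-null buds. *Pecam1* of endothelium was at 17.6 to 35.7 FPKM and 13.4 to 19.6 FPKM, and the leukocyte gene *Ptprc* at 0.238 to 1.06 FPKM and 0.434 to 0.821 FPKM. The erythroid sum was 2630 to 15746 FPKM in WT and 7956 to 10152 FPKM in Lats1/2-null buds. The liver sum was 93.4 to 162 FPKM and 123 to 360 FPKM. Both overlapped, though Lats1/2-null replicate 3, at 360 FPKM, was above the WT range of the liver sum. All 7 tested genes of each list had higher fitted values, with a median log2 fold change of 0.49 in both lists. Mesenchyme had been pulled away by hand, and how completely in each bud is not given. In such buds, fewer cells of a type and less RNA per cell cannot be told apart.

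All 10 Hippo genes were expressed in every bud, between 7.16 and 43.3 FPKM. Of the 10, *Wwc1* stood higher in Lats1/2-null buds by the ratio of means, at 2.14 times the WT level, and *Lats1* stood lower, at 77.4% of it. These were the members whose groups did not overlap, 2 of 10, or 20.0%, against a background of 7.51% of the 13777 genes tested. *Wwc1* was 1 member above the WT range (background 4.46%) and *Lats1* was 1 member below it (background 3.06%). Neither passed limma's test after Benjamini-Hochberg adjustment, which called 0 of 10 members and 0.0145% of all genes tested, or 2 genes. At an unadjusted p under 0.05 the same pair of members was reached, 2 of 10 against 11.3% of all genes. For the other 8, log2 fold changes lay between -0.16 and 0.18, and all of their 95% intervals lay within -0.38 and 0.41, or 0.768 to 1.33 as a fold. The median over the 10 members was 0.06, beside -0.01 over all genes tested.

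**Figure D1:**
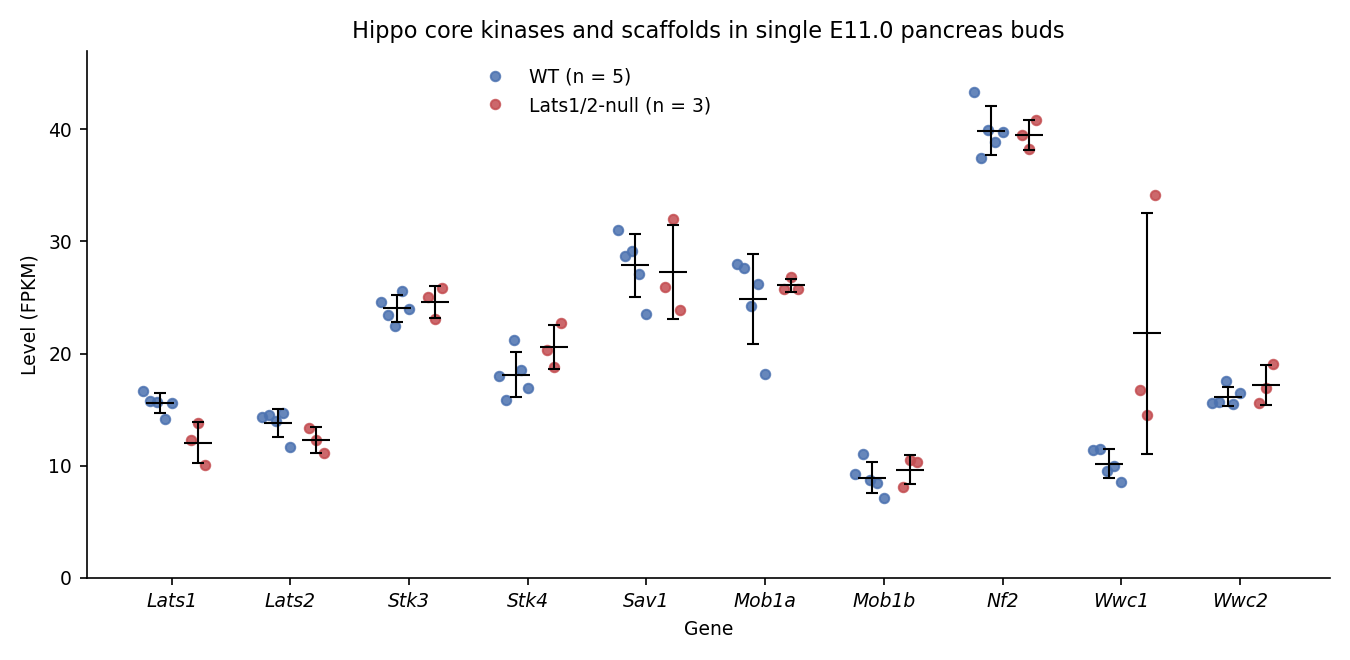
Level of each gene in FPKM (vertical axis, linear from 0) in every bud, with WT in blue and Lats1/2-null in red. Each point is 1 bud, and black bars give the mean and SD. The red points lie wholly below the blue ones for *Lats1* and wholly above them for *Wwc1*, where 1 bud stands at 34.1 FPKM.

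In WT buds the scaffold *Nf2* had the highest mean level, at 39.9 FPKM, followed by *Sav1*, *Mob1a*, *Stk3*, *Stk4*, *Wwc2*, *Lats1*, *Lats2*, *Wwc1* and *Mob1b*, the last at 8.93 FPKM. Between neighbours in this order, the WT ranges were apart for *Nf2* over *Sav1*, for *Stk3* over *Stk4* and for *Lats2* over *Wwc1*, and overlapped for the other pairs. *Nf2* exceeded *Sav1*, and *Stk3* exceeded *Stk4*, in 8 of 8 buds. *Lats2* exceeded *Wwc1* in 5 of 5 WT buds and in 5 of 8 buds in all, so the order of this pair was the opposite in every Lats1/2-null bud. The order was read from the same values and was not tested.

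The deleted kinases were read first, since they bear on the genotype labels. *Lats1* (chromosome 10 of GRCm38, 7681209 to 7716461, plus strand) encodes one of the kinases that phosphorylate YAP1 and TAZ. Its level was 16.6, 15.8, 15.7, 14.1 and 15.6 FPKM in WT replicates 1 to 5, and 12.3, 13.8 and 10.1 FPKM in Lats1/2-null replicates 1 to 3. Every Lats1/2-null bud was below every WT bud, though the gap between the groups was only 0.311 FPKM, between Lats1/2-null replicate 2 and WT replicate 4. The means were 15.6 ± 0.905 FPKM (SD, n = 5) and 12.1 ± 1.87 FPKM (SD, n = 3). The single Lats1/2-null buds held 78.8%, 88.7% and 64.8% of the WT mean. The log2 fold change of FPKM + 1 was -0.35 (SE 0.10, 95% interval -0.58 to -0.12; limma, adjusted p = 0.269). The exact two-sided permutation test gave p = 0.0179, the smallest value that 5 against 3 buds allow. It was not adjusted over the members and restates that the groups lay apart. As a fold, the 95% interval runs from 0.669 to 0.918. Without Lats1/2-null replicate 3 the log2 fold change was -0.24 (limma, adjusted p = 0.786).

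*Lats2* (chromosome 14, 57689662 to 57746123, minus strand) encodes the second LATS kinase and is known as a transcriptional target of YAP1 and TAZ. It was at 14.3, 14.5, 14.0, 14.7 and 11.6 FPKM in the WT buds and at 13.4, 12.3 and 11.1 FPKM in the Lats1/2-null buds. Of the WT buds, 4 lay above all Lats1/2-null buds, and WT replicate 5 lay among them. The Lats1/2-null mean of 12.3 ± 1.15 FPKM (SD, n = 3) was 88.7% of the WT mean of 13.8 ± 1.26 FPKM (SD, n = 5). The log2 fold change was -0.16 (95% interval -0.38 to 0.06; limma, adjusted p = 0.589; exact permutation test, two-sided, p = 0.143). As single buds were left out it ran from -0.22 to -0.10, with the weakest value without Lats1/2-null replicate 3, and without WT replicate 5 it was -0.22. An overlapping gene model on the same strand, *Gm49361*, holds 42.8% of the 75-base stretches of the *Lats2* transcripts, so reads could have been split between them and the *Lats2* level is uncertain.

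Summed over both kinases, WT buds held 27.2 to 31.0 FPKM and Lats1/2-null buds 21.2 to 26.1 FPKM, and these ranges were apart. FPKM are a value of the whole gene, and reads from the deleted exons alone are not analysed here. In immunostains, the paper found phosphorylated YAP1 lost from mutant buds at an earlier stage. It found phosphorylated LATS protein nearly gone at a later one. The means of both kinases were lower in the buds labelled Lats1/2-null, and RNA of both remained in each of them. Beside this, the summed level of 12 mesenchymal markers was 1089 to 1262 FPKM in WT buds and 972, 1135 and 889 FPKM in Lats1/2-null replicates 1 to 3. Lats1/2-null replicate 3 was lowest, and replicate 2 highest, of the 3 for both *Lats1* and the mesenchymal sum. Per 1000 FPKM of mesenchymal markers, *Lats1* was at 12.3 to 14.6 FPKM in WT and 11.4 to 12.6 FPKM in Lats1/2-null buds, and *Lats2* at 9.21 to 13.4 FPKM and 10.8 to 13.8 FPKM. On this scale the groups overlapped for both kinases. The outcome depended on *Vim*. By the paper's immunostains at a slightly later stage, VIM protein was absent from WT epithelium and ectopically high in mutant epithelium. *Vim* may therefore not mark mesenchyme alone in Lats1/2-null buds. Without *Vim* in the sum, *Lats1* was at 18.4 to 26.0 FPKM per 1000 in WT buds and at 25.6, 20.6 and 35.1 FPKM in Lats1/2-null replicates 1 to 3. The ratio of means was then 1.26 for *Lats1* and 1.48 for *Lats2*, against 0.904 and 1.04 with *Vim*, so the direction for *Lats1* turned and the groups again overlapped. These scales were chosen after the values were seen, and the part of cell composition in the *Lats1* difference was not tested.

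The upstream kinases did not separate. *Stk3* (chromosome 15, 34875499 to 35155806, minus strand) encodes MST2, which phosphorylates LATS kinases and MOB1. Its level was 24.6, 23.4, 22.5, 25.6 and 24.0 FPKM in WT buds and 25.0, 23.0 and 25.8 FPKM in Lats1/2-null buds, with a log2 fold change of 0.03 (95% interval -0.12 to 0.18; limma, adjusted p = 0.894). Of the 10 genes, only *Nf2* had a narrower interval. *Stk4* (chromosome 2, 164074178 to 164155521, plus strand) encodes MST1, the paralogue of MST2. It was at 18.0, 15.9, 21.2, 18.6 and 16.9 FPKM in WT buds and at 20.3, 18.8 and 22.7 FPKM in Lats1/2-null buds. The Lats1/2-null buds lay above 4 of 5 WT buds, and WT replicate 3 lay among them. The log2 fold change was 0.18 (95% interval -0.05 to 0.40; limma, adjusted p = 0.565). It ran from 0.11 without Lats1/2-null replicate 3 to 0.24 without Lats1/2-null replicate 2.

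*Sav1*, *Mob1a* and *Mob1b* overlapped between genotypes as well. SAV1 (Salvador) is the adaptor that binds MST kinases and brings them to LATS. *Sav1* was at 31.0, 28.7, 29.1, 27.1 and 23.5 FPKM in WT buds and at 25.9, 32.0 and 23.9 FPKM in Lats1/2-null buds, with a log2 fold change of -0.04 (95% interval -0.29 to 0.22; limma, adjusted p = 0.936). The highest bud and the second lowest were both Lats1/2-null. The locus given for *Sav1* in the table, chromosome 12 from 69746848 to 69987002, is wider than the GENCODE gene from 69965012 to 69987002 on the minus strand and holds 12 other genes, and how this entered the level was not tested.

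MOB1 proteins bind and activate LATS kinases once phosphorylated by MST. *Mob1a* (chromosome 6, 83326039 to 83340949, plus strand) was at 28.0, 27.7, 24.3, 26.2 and 18.2 FPKM in WT buds and at 25.7, 26.8 and 25.7 FPKM in Lats1/2-null buds. WT replicate 5 was the lowest bud. *Mob1b* (chromosome 5, 88720871 to 88758455, plus strand) was at 9.30, 10.998, 8.75, 8.43 and 7.16 FPKM in WT buds and at 8.13, 10.5 and 10.3 FPKM in Lats1/2-null buds, with WT replicate 5 again lowest. WT replicate 5 was also the library with the fewest estimated fragments, and a link to these levels was not tested. The log2 fold changes were 0.08 for *Mob1a* (95% interval -0.21 to 0.37; limma, adjusted p = 0.864) and 0.10 for *Mob1b* (95% interval -0.20 to 0.41; limma, adjusted p = 0.829). Without WT replicate 5 the value for *Mob1a* was -0.02. The coding transcripts of *Mob1a* and *Mob1b* share 0 stretches of 75 bases.

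*Nf2* (chromosome 11, 4765845 to 4849544, minus strand) encodes merlin, the membrane-associated tumor suppressor that recruits LATS kinases. Its level was 43.3, 37.4, 39.9, 38.8 and 39.7 FPKM in WT buds and 39.5, 38.2 and 40.8 FPKM in Lats1/2-null buds. All Lats1/2-null buds lay inside the WT range. The log2 fold change was -0.01 (95% interval -0.15 to 0.13; limma, adjusted p = 0.962).

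*Wwc1* (chromosome 11, 35839178 to 35980089, minus strand) encodes KIBRA, a WW-domain scaffold that acts with merlin upstream of LATS and is known as a transcriptional target of YAP1. Its level was 11.4, 11.5, 9.55, 9.93 and 8.58 FPKM in WT replicates 1 to 5, and 16.8, 14.5 and 34.1 FPKM in Lats1/2-null replicates 1 to 3. Every Lats1/2-null bud was above every WT bud, with a gap of 3.04 FPKM between the groups, and Lats1/2-null replicate 3 was far above the other two. The means were 10.2 ± 1.25 FPKM (SD, n = 5) and 21.8 ± 10.7 FPKM (SD, n = 3). The single Lats1/2-null buds were at 1.65, 1.43 and 3.35 times the WT mean. The log2 fold change was 0.94 (SE 0.24, 95% interval 0.40 to 1.48; limma, adjusted p = 0.212; exact permutation test, two-sided, p = 0.0179, not adjusted). Without Lats1/2-null replicate 3 the ratio of means was 1.54 and the log2 fold change 0.58 (limma, adjusted p = 0.291), so the size of the difference, though not its direction, depended on this bud.

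*Wwc2* (chromosome 8, 47827606 to 47990551, minus strand) encodes a scaffold of the same family. It was at 15.6, 15.7, 17.5, 15.5 and 16.5 FPKM in WT buds and at 15.6, 16.9 and 19.1 FPKM in Lats1/2-null buds. The groups overlapped, and the log2 fold change was 0.08 (95% interval -0.10 to 0.27; limma, adjusted p = 0.765). Lats1/2-null replicate 3 was the highest bud for *Wwc2* as it was for *Wwc1*. In GENCODE M21, *Wwc2*, *Stk4* and *Sav1* each overlap a coding gene on the opposite strand (*Cldn22*, *Tomm34* and *Atl1*). The libraries were stranded, and the methods give a first-strand library type for the alignment.

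**Figure D2:**
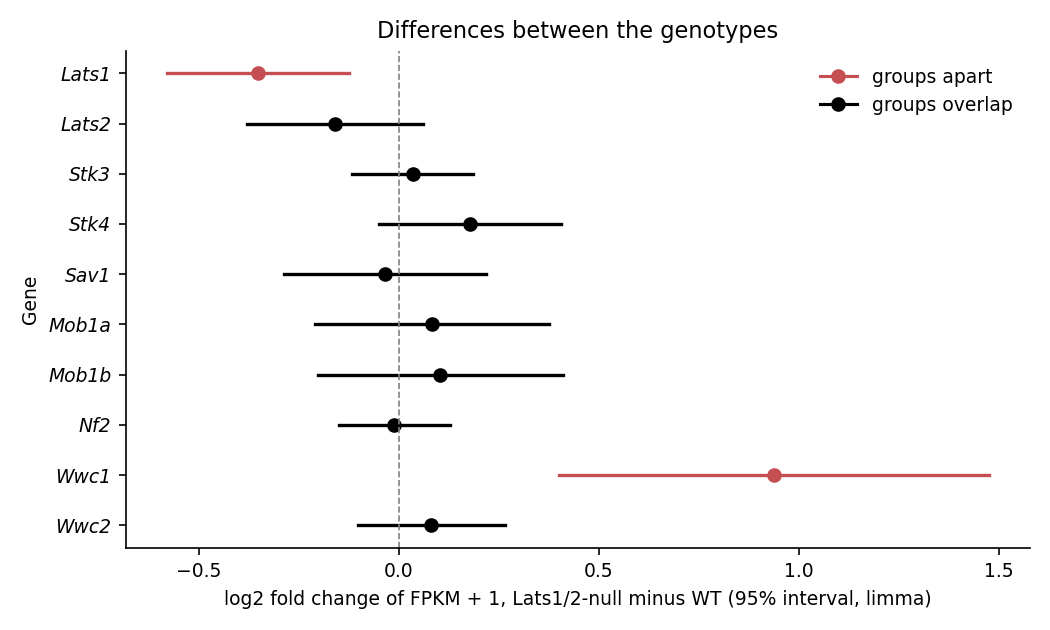
Log2 fold change of FPKM + 1 (horizontal axis, Lats1/2-null minus WT) for each gene, with limma's 95% interval as a line. Red marks the genes whose groups lay apart. The intervals of *Lats1* (-0.58 to -0.12) and *Wwc1* (0.40 to 1.48) do not reach 0, and the other 8 do.

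The 5 buds with the most *Wwc1* RNA also had the most epithelial marker RNA, in the same order. Among the other WT buds the order differed. WT replicate 5 had the least *Wwc1* RNA (8.58 FPKM) but more marker RNA than WT replicates 3 and 4. The summed level of 12 pancreatic epithelium markers was 1011, 1122, 885, 894 and 910 FPKM in WT buds, and 1782, 1238 and 3095 FPKM in Lats1/2-null buds. Lats1/2-null replicate 3 was highest and replicate 2 lowest of the 3 in both. The ratio of means was 2.11 for the marker sum and 2.14 for *Wwc1*. Per 1000 FPKM of epithelial markers, *Wwc1* was at 11.3, 10.2, 10.8, 11.1 and 9.43 FPKM in WT buds and at 9.42, 11.7 and 11.03 FPKM in Lats1/2-null buds. The groups overlapped on this scale, which was chosen after the values were seen, and the ratio of means was 1.01. The hormone gene *Gcg* makes up most of the sum. Without it the ratio of means was 0.881, with 30.3 to 40.5 FPKM in WT and 31.7 to 33.1 FPKM in Lats1/2-null buds. The order of buds changed too, with WT replicate 5 above WT replicate 1 in the sum without *Gcg* (283 and 282 FPKM). The marker sum is not independent of the pathway, since its member *Sox9* is known as a target of YAP1 and TEAD (log2 fold change 1.25; limma, adjusted p = 0.116). Nor did all markers go 1 way, with *Ptf1a* at a log2 fold change of -0.15 (limma, adjusted p = 0.835). The part of cell composition in the *Wwc1* difference was not tested beyond these values.

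**Figure D3:**
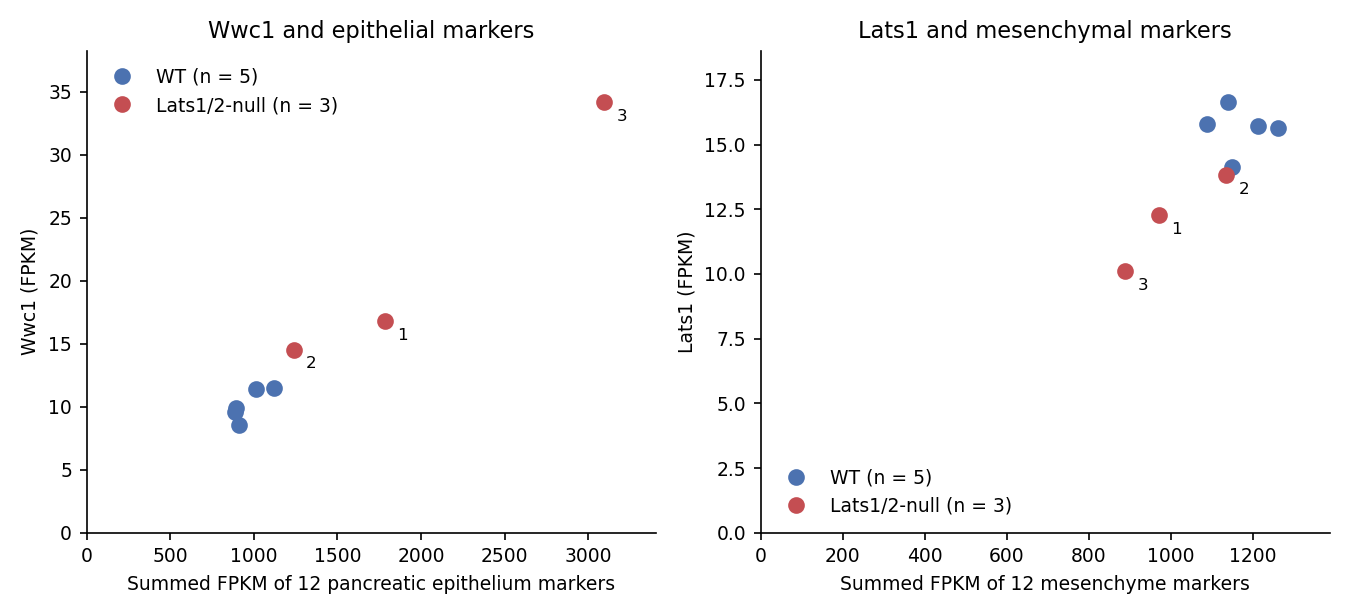
Left, *Wwc1* in FPKM against the summed FPKM of 12 pancreatic epithelium markers. Right, *Lats1* in FPKM against the summed FPKM of 12 mesenchyme markers. Each point is 1 bud, WT in blue and Lats1/2-null in red with its replicate number, *Vim* and *Gcg* are part of the sums, and all axes start at 0. Lats1/2-null replicate 3 has the most *Wwc1* and epithelial marker RNA (34.1 and 3095 FPKM) and the least *Lats1* and mesenchymal marker RNA (10.1 and 889 FPKM).

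The promoters of the WWC scaffolds are shown because 1 of the pair separated between genotypes and the other did not. They are the 250 bases before each gene's annotated start in RefSeq on GRCm38.p6, on the minus strand, at chr11:35980528-35980777 for *Wwc1* and chr8:47990545-47990794 for *Wwc2*. Capitals mark the TEAD-binding hexamer GGAATG or its reverse complement CATTCC, searched on both strands, with no other motif searched.
Wwc1: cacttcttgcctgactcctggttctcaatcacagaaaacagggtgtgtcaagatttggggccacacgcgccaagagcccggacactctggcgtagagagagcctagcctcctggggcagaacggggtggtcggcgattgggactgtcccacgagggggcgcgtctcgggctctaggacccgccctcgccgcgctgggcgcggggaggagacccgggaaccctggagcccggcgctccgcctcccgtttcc
Wwc2: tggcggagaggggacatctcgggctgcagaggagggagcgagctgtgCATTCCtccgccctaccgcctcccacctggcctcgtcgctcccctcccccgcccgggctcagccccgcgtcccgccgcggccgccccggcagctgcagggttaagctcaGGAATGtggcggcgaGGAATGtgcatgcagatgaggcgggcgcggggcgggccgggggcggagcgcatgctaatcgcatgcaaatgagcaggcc

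The *Wwc1* window held 0 matches. The *Wwc2* window held 3, which begin 203, 94 and 79 bases before the start and do not overlap. GENCODE M21 places the start of *Wwc2* further upstream, at 47990924, so by that model the whole window lies inside the gene. For *Wwc1* its start, at 35980527, adjoins the window. The contrast between these windows therefore rests on the RefSeq starts. At least 1 match was present in 12.6% of 32851 promoter windows of this length, and 3 or more in 27 windows, or 0.0822%. RefSeq gave 11 windows for 9 of 10 members, all but *Stk3*, and 3 of the 11 windows, from 3 members, held a match. The other two were *Mob1a*, with 1 at 209 bases before the start, and *Sav1*, with 1 at 106 bases. A match is a run of letters and not a bound site, and a window without one says only that these letters are not in it. Sequence further from the start was not searched, and a link between matches and RNA levels was not tested.

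The balance of paralogues was compared next as a log2 ratio within each bud, which does not depend on how a library was scaled. The log2 ratio of *Wwc1* to *Wwc2* was -0.45, -0.45, -0.88, -0.64 and -0.94 in WT buds and 0.11, -0.22 and 0.84 in Lats1/2-null buds. The groups lay apart, with *Wwc2* the higher of the pair in every WT bud and *Wwc1* the higher in Lats1/2-null replicates 1 and 3. *Wwc1* made up 38.6% ± 3.77 (SD, n = 5) of the summed WWC level in WT buds and 54.1% ± 9.14 (SD, n = 3) in Lats1/2-null buds. The means differed by 0.91 (two-sided exact permutation test, p = 0.0179, or 0.0714 after adjustment over 4 pairs), so the difference did not pass after adjustment. The summed level of both genes was 25.0 to 27.2 FPKM in WT and 31.4 to 53.3 FPKM in Lats1/2-null buds.

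For the LATS kinases the ratio overlapped. It was 0.21, 0.12, 0.17, -0.05 and 0.43 in WT buds and -0.13, 0.17 and -0.13 in Lats1/2-null buds, with a mean difference of -0.21 (exact permutation test, two-sided, p = 0.161, adjusted 0.310). *Lats1* made up 53.0% ± 2.99 (SD, n = 5) of the summed LATS level in WT buds and 49.5% ± 2.97 (SD, n = 3) in Lats1/2-null buds. The log2 ratio of *Stk3* to *Stk4* was 0.45, 0.56, 0.08, 0.46 and 0.50 in WT buds and 0.30, 0.30 and 0.18 in Lats1/2-null buds. WT replicate 3 was the lowest of the 8, and the other 4 WT buds lay above all Lats1/2-null buds. The mean difference was -0.15 (exact permutation test, two-sided, p = 0.232, adjusted 0.310). Without WT replicate 3 it was -0.23, given without a test because this bud stands out on the same ratio. *Mob1a* was the dominant MOB1 gene, at 73.5% ± 1.87 (SD, n = 5) of the summed level in WT buds and 73.1% ± 2.51 (SD, n = 3) in Lats1/2-null buds. Its log2 ratio to *Mob1b* was 1.33 to 1.64 and 1.32 to 1.66, with a mean difference of -0.03 (exact permutation test, two-sided, p = 0.857, adjusted 0.857).

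**Figure D4:**
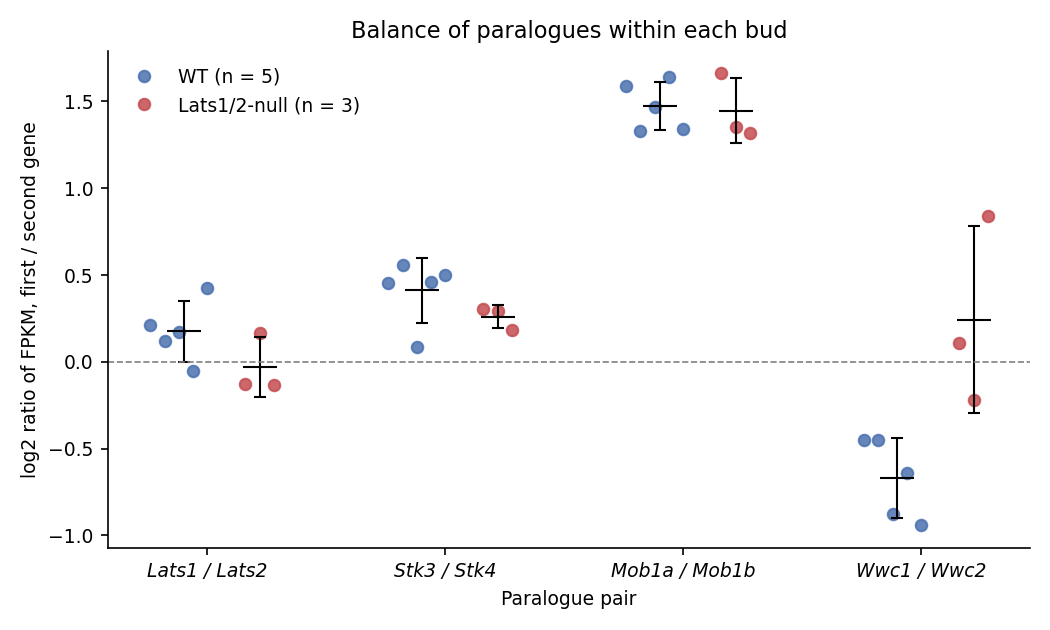
Log2 ratio of FPKM of the first to the second gene of each paralogue pair (vertical axis) in every bud, WT in blue and Lats1/2-null in red, with the mean and SD in black. Red and blue points lie apart only for *Wwc1* over *Wwc2*, whose mean was -0.67 in WT and 0.24 in Lats1/2-null buds.

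Other genes that feed into the cascade were read as 5 lists by role, 47 of 50 genes tested. limma called 0 of 47 (smallest adjusted p = 0.109). At an unadjusted p under 0.05 there were 9, or 19.1% beside 11.3% of all genes tested, 6 of them higher and 3 of them lower in Lats1/2-null buds. The groups lay apart for 7 genes, or 14.9% beside 7.51% of all genes, with 6 above and 1 below, and the median log2 fold change was 0.00.

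FERM and phosphatase scaffolds held the genes nearest to *Wwc1* in size. Of 8 tested genes among atypical cadherins and FERM scaffolds, 3 lay above the WT range (background 4.46%) and none below it. *Frmd6*, which encodes the FERM protein Willin, was at 2.77 to 4.37 FPKM in WT buds and 6.72 to 12.2 FPKM in Lats1/2-null buds (log2 fold change 1.06; limma, adjusted p = 0.109). *Ptpn21*, a FERM-domain tyrosine phosphatase, was at 5.98 to 7.28 FPKM and 8.03 to 17.6 FPKM (log2 fold change 0.70; limma, adjusted p = 0.281). The groups were apart for both. They were apart too for *Ptpn14*, named after its values were seen, at 7.15 to 8.96 FPKM and 9.21 to 18.3 FPKM (log2 fold change 0.57; limma, adjusted p = 0.314). In Lats1/2-null replicates 1 to 3 the levels were 9.02, 6.72 and 12.2 FPKM for *Frmd6* and 10.1, 8.03 and 17.6 FPKM for *Ptpn21*, in the same order of buds as *Wwc1* and the epithelial marker sum, and the part of cell composition was not tested. The atypical cadherins *Fat3* and *Dchs1*, named after their values were seen, were lower at an unadjusted p under 0.05. *Fat3* was at 6.08 to 9.66 FPKM in WT and 2.52 to 6.42 FPKM in Lats1/2-null buds (log2 fold change -0.69; limma, adjusted p = 0.351), and *Dchs1* at 20.4 to 26.2 FPKM and 13.4 to 22.2 FPKM (log2 fold change -0.37; limma, adjusted p = 0.380). In the list of LIM proteins and E3 ligases that act against LATS, 2 of 7 lay above the WT range (background 4.46%). These were *Ajuba*, at 10.2 to 14.7 FPKM and 16.8 to 24.4 FPKM (log2 fold change 0.62; limma, adjusted p = 0.197), and its relative *Wtip*, at 4.79 to 9.94 FPKM and 10.2 to 10.9 FPKM (log2 fold change 0.41; limma, adjusted p = 0.485).

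Kinases and phosphatases around the core had log2 fold changes from -0.45 to 0.23. Among 10 TAO and MAP4K kinases, which can phosphorylate MST or LATS, *Map4k1* lay below the WT range, at 3.01 to 3.81 FPKM in WT and 1.86 to 2.51 FPKM in Lats1/2-null buds (log2 fold change -0.45; limma, adjusted p = 0.258). *Map4k1* is known mainly from blood cells. The leukocyte marker sum was 10.1 to 17.7 FPKM in WT and 14.0 to 17.9 FPKM in Lats1/2-null buds. A link between this sum and *Map4k1* was not tested. *Taok2* lay above the WT range (32.8 to 36.7 FPKM and 37.7 to 40.9 FPKM, log2 fold change 0.14; limma, adjusted p = 0.419). All 7 NDR kinases and other MOB proteins overlapped, with log2 fold changes from -0.23 for *Mob3b* to 0.08, and *Mob4* at -0.10. All 15 tested genes of STRIPAK, the phosphatase complex that keeps MST kinases inactive, overlapped too. In that list the smallest p-values belonged to the catalytic subunit gene *Ppp2cb* (36.7 to 48.5 FPKM and 48.2 to 54.7 FPKM, log2 fold change 0.23; limma, adjusted p = 0.399) and the kinase gene *Stk26* (log2 fold change -0.36; limma, adjusted p = 0.582).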

How the data were processed

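Total RNA of single E11.0 pancreas buds was ribo-depleted and sequenced as stranded libraries, 5 WT and 3 Lats1/2-null. Alignment by the authors used TopHat 2.1.0 and the GRCm38/mm10 assembly, and Cufflinks 2.2.1 gave the deposited FPKM for 24341 genes. The methods state quantile normalization, but the deposited columns do not share 1 distribution, and they were used as given. The table holds no read counts, so no count model was run and no counting interval is given.

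limma 3.58.1 in R 4.3.3 was fitted to log2(FPKM + 1), with trend, for the 13777 genes whose mean reached 0.5 FPKM. Benjamini-Hochberg adjustment ran over all 13777, and the threshold was 0.05. The added 1 FPKM makes fold changes of low genes too small. Single values were also compared by exact two-sided permutation over the 56 ways to choose 3 of 8 buds, which cannot go below 0.0179. These p-values were adjusted for the paralogue ratios and not for the members. Buds came from separate embryos. The fit was tested on simulated data. Groups came from the sample labels.

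The members and the gene lists were chosen with earlier results of these data known. Named genes are all 10 members, the 2 genes of each pathway list with the smallest unadjusted p, and *Pdx1*, *Cdh1*, *Vim*, *Pecam1* and *Ptprc* among markers. *Gcg*, *Sox9*, *Ptf1a*, *Ptpn14*, *Fat3* and *Dchs1* were named after their values were seen. Gene models came from GENCODE M21 and promoters from RefSeq. The alternatives were other pseudocounts, filters and scalings, no trend, array weights, a block for the replicate number, and leaving out single buds. Figures were drawn with matplotlib 3.10.9.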

Additional observations from a re-analysis of the deposited data

Results flagged for a closer look

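In 2 cases a WT bud stood far from the other 4 WT buds by Dixon's test, out of 14 sets of 5 WT values examined. *Lats2* was at 11.6 FPKM in WT replicate 5, against 14.0 to 14.7 FPKM in the others. The log2 ratio of *Stk3* to *Stk4* was 0.0835 in WT replicate 3, against 0.453 to 0.558 in the others. At the 95% level used, chance marks about 1 in 20 such sets.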

How the results depend on the processing

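limma called 0 of 10 members under all 16 alternatives. The groups for *Lats1* and *Wwc1* also lay apart after quantile normalization and after median-ratio scaling, the alternatives that could have joined them. *Stk4* joined them without WT replicate 3 and *Lats2* without WT replicate 5, which made 3 members, while the share of all genes apart was 9.99% and 10.5% in these settings and up to 19.4%, without Lats1/2-null replicate 2. Log2 fold changes lay between -0.45 and -0.24 for *Lats1* (adjusted p 0.0661 to 0.786) and between 0.58 and 1.17 for *Wwc1* (adjusted p 0.0774 to 0.524), with the lowest for *Wwc1* without Lats1/2-null replicate 3. They lay between -0.22 and -0.10 for *Lats2* and between 0.11 and 0.24 for *Stk4*. Signs turned for genes near 0, and the cause was not tested: *Sav1* (0.0028 without WT replicate 1 and 0.050 without Lats1/2-null replicate 3, from -0.15 as buds were left out), *Mob1a* (-0.0070 with array weights, -0.026 with the replicate block and -0.022 without WT replicate 5, up to 0.13 as buds were left out), *Mob1b* (-0.091 with array weights and -0.0083 with the replicate block) and *Nf2* (0.018 without WT replicate 1 and 0.012 without Lats1/2-null replicate 2, from -0.035). As each bud was left out, the difference in log2 ratio ranged from -0.31 to -0.14 for *Lats1* to *Lats2*, from -0.23 to -0.11 for *Stk3* to *Stk4*, from -0.14 to 0.034 for *Mob1a* to *Mob1b*, and from 0.62 to 1.15 for *Wwc1* to *Wwc2*. The ratio of *Mob1a* to *Mob1b* turned sign to 0.012 without WT replicate 4, 0.017 without Lats1/2-null replicate 2 and 0.034 without Lats1/2-null replicate 3.

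Deviations from the group mean were weakly correlated between Lats1/2-null and WT buds of the same replicate number (r = 0.0855, -0.0969 and 0.0685). Between different numbers r ran from -0.110 to 0.135. For Lats1/2-null replicates 1 and 3 the WT bud of the same number had the highest r. The values were small, and the numbers were not taken as pairs. With the replicate block the log2 fold change was -0.39 for *Lats1* (limma, adjusted p = 0.479) and 0.86 for *Wwc1* (limma, adjusted p = 0.524), 0 members were called, and limma called 1 gene in all. Over all genes limma called 174 with array weights, 69 without Lats1/2-null replicate 2, 19 without Lats1/2-null replicate 3 and 18 with 0.1 FPKM added, against 2.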
